A study of Mus musculus with 25 samples.

Results

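The unfolded protein response genes examined here are Hspa5, Ddit3, Atf3, Atf4, Xbp1, Ern1, Eif2ak3, Wfs1, Trib3 and Herpud1. They were taken by symbol, and gave 10 rows of the 24531 in the RNA-seq table (92 of them spike-in controls) and 30 of the 65053 consensus ATAC-seq peaks, those whose nearest annotated gene was one of the 10. All 10 genes passed the filter on low values (every replicate of at least 1 line at or above an FPKM of 1). FPKM is the number of fragments scaled to the length of the transcript and to the depth of the library, so it allows levels to be compared between genes. The genes were measured in alpha TC1 clone 6 (αTC1), a mouse line that makes glucagon, and beta-TC-6 (βTC6), a mouse line that makes insulin. Each is a single established line from ATCC, grown from a pancreatic tumour of a mouse that carried a transgenic viral oncogene, and neither received a treatment. RNA-seq covered 3 replicates of each line, and ATAC-seq, which counts reads from DNA that a transposase can reach, covered 5 replicates of each line and 9 mixtures with 10 to 90% αTC1 cells, 1 library each, from 100000 cells per library. The lines were grown in different media: αTC1 in a DMEM supplemented with glucose, HEPES, amino acids and albumin, and βTC6 in another DMEM with more serum and with pyruvate. Line and medium therefore cannot be told apart in any comparison below. The paper names each DMEM by catalogue number without its glucose, so the added glucose does not show which line had more. Nothing says that replicates came from separate cultures, so p-values measure only the spread between these libraries, which may be technical.

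The libraries carried the hormone genes of their labels. The 7 beta cell markers summed to between 34326 and 51389 FPKM in βTC6 and to between 145 and 192 in αTC1, where 2 of them (Ins1 and Pdx1) were at 0 in every library. The 6 rows for alpha cell markers summed to between 12354 and 14703 FPKM in αTC1 and to between 194 and 283 in βTC6. Markers of delta, PP and epsilon cells summed to between 238 and 349 FPKM in βTC6, mostly Sst, and to at most 1.04 in αTC1. Markers of acinar, duct, fibroblast, endothelial and blood cells summed to at most 5.11 FPKM. RNA-seq libraries held between 21954031 and 26033482 expected counts, and pure ATAC-seq libraries between 4397851 and 10374903 reads in peaks, the fewest in βTC6 replicate 2. A bulk library cannot tell fewer cells that use a gene from less RNA per cell.

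The unfolded protein response is the cell's reaction to unfolded protein in the endoplasmic reticulum (ER). The sensor IRE1α (Ern1) splices Xbp1 mRNA, the kinase PERK (Eif2ak3) slows translation and raises ATF4, which acts on Ddit3 (CHOP), Atf3 and Trib3, and the sensor ATF6 acts with XBP1 on ER chaperones such as BiP (Hspa5). Insulin-making cells fold a large load of secreted protein, and mutations of PERK and of wolframin (Wfs1) cause diabetes. Gene-level counts cannot show whether Xbp1 was spliced or whether any kinase was active.

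Within the windows searched, the promoters of 4 of the 10 genes held exact matches to letters known to be read by factors of this response. These sites are shown first. The windows are those of RefSeq on GRCm38.p6 (250 bases before and 50 after each start, 1 for each member), each found once in mm9 by exact match, and positions are counted from the start. The ER stress response element (CCAAT, 9 bases, CCACG) lies in 0.119% of 32851 promoters, ERSE-II (ATTGG, 1 base, CCACG) in 0.0365% and the C/EBP-ATF composite element (TGATGNAA) in 3.97%, on either strand. Capitals mark the matched letters in these 30-base stretches, read along the strand of the gene.
Hspa5, ER stress response element, chr2:34627540-34627569: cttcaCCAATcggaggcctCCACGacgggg
Herpud1, ERSE-II, chr8:96910268-96910297: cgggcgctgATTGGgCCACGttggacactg
Herpud1, C/EBP-ATF composite element on the other strand, chr8:96910206-96910235: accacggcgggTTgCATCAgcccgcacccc
Atf3, C/EBP-ATF composite element on the other strand, chr1:193007304-193007333: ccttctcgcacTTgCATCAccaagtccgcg
Trib3, C/EBP-ATF composite element on the other strand, chr2:152169764-152169793: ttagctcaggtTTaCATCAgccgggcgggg
The Hspa5 element lies 65 to 47 bases before the start, the Herpud1 elements 52 to 42 and 112 to 105 bases before it, and the Atf3 element 110 to 103 bases before it, while the Trib3 element lies 14 to 21 bases after the start. The UPR element (TGACGTGG, in 0.676% of promoters) and the cAMP response element (TGACGTCA, in 1.79%) matched none of the members' windows. A match is a description of the letters and not of factor binding. Inexact or more distant sites were not searched, so a window without a match does not show that the gene lacks such an element.

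In RNA, 7 of the 10 genes passed the test (edgeR quasi-likelihood test, Benjamini-Hochberg FDR under 5%) with a higher level in βTC6, and 0 passed with a higher level in αTC1. Of the 12195 genes tested, 38.7% passed with a higher level in βTC6 and 36% with a higher level in αTC1. One gene, Wfs1, also exceeded an absolute log2 fold change of 2, against 10.2% of all genes in the direction of βTC6 and 4.08% in that of αTC1. Without αTC1 replicate 3, and likewise without βTC6 replicate 3, Xbp1 exceeded it too, making 2. The median log2 fold change (βTC6 over αTC1) of the 10 genes was 1.02, beside 0.01 over all genes tested. The FPKM of the lines did not overlap for 6 of the 10 genes, as for 77.7% of all genes tested. The gene that passed with overlapping ranges was Trib3. With edgeR on factors from the ERCC spike-ins, 5 of the 10 genes passed as higher in βTC6, beside 2132 of the 12195 genes tested. Herpud1 passed there at an FDR of 0.0492. The paper had scaled its counts by the spike-ins with RUVSeq, which was not rerun here.

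Of the sensors, Ern1 differed between the lines and Eif2ak3 did not pass. Ern1, the gene of IRE1α, had FPKM of 20.1, 19.0 and 18.1 in the αTC1 libraries and of 52.1, 35.5 and 34.97 in the βTC6 libraries, so that every βTC6 library lay above every αTC1 library. Its means were 19.0 ± 1.0 and 40.9 ± 9.75 FPKM (SD, n = 3 each), with a log2 fold change of 1.18 (SE 0.14, edgeR FDR 5.96e-05). Eif2ak3, the gene of PERK, had 21.2, 20.8 and 21.4 FPKM in αTC1 and 21.6, 19.7 and 18.7 in βTC6. The ranges of the lines overlapped, with a log2 fold change of -0.04 (SE 0.07, edgeR FDR 0.662).

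Among the transcription factors, Xbp1 and Ddit3 were higher in βTC6, whereas Atf4 and Atf3 did not pass. Xbp1, whose spliced form raises genes of folding, secretion and degradation, had FPKM of 44.2, 42.4 and 67.3 in αTC1 and of 193, 217 and 143 in βTC6. The lowest βTC6 library thus lay above the highest αTC1 library. Means were 51.3 ± 13.9 and 184 ± 37.8 FPKM (SD, n = 3 each) and the log2 fold change was 1.93 (SE 0.20, edgeR FDR 2.53e-05).

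Ddit3, the gene of the proapoptotic factor CHOP, had 45.0, 41.2 and 47.4 FPKM in αTC1 and 73.5, 48.8 and 101 in βTC6. The lines did not overlap, but βTC6 replicate 2 lay just above the αTC1 libraries. The log2 fold change was 0.81 (SE 0.22, edgeR FDR 0.00789), and it was 0.52 (FDR 0.0185) without βTC6 replicate 3. With factors from the ERCC spike-ins in place of TMM the log2 fold change was 0.72 and the test no longer passed (SE 0.42, FDR 0.198).

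Atf4, the factor whose translation PERK raises, had 278, 285 and 199 FPKM in αTC1 and 245, 230 and 281 in βTC6. Its lines overlapped fully, with means of 254 ± 47.7 and 252 ± 26.2 (SD, n = 3 each) and a log2 fold change of 0.03 (SE 0.14, edgeR FDR 0.838). Since ATF4 is set mainly by translation, its mRNA is not a measure of the protein.

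Atf3, a stress-induced factor of the same family, had 10.0, 9.75 and 7.53 FPKM in αTC1 and 4.41, 3.21 and 22.9 in βTC6. A single library decided the comparison: βTC6 replicate 3 stood above all αTC1 libraries and the other βTC6 libraries stood below them all. With all 6 libraries the log2 fold change was 0.22 (SE 0.62, edgeR FDR 0.76), and without βTC6 replicate 3 it was -1.19 (SE 0.19, FDR 0.000824), that is, higher in αTC1. Without βTC6 replicate 2 it was 0.62 (FDR 0.329), and without βTC6 replicate 1 it was 0.57 (FDR 0.442).

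The 4 effector genes passed the test, with the clearest difference for Wfs1. Wfs1, which encodes wolframin of the ER membrane, had 4.01, 4.07 and 4.4 FPKM in αTC1 and 17.5, 20.1 and 15.8 in βTC6. The lines lay far apart beside the spread within each, with means of 4.16 ± 0.210 and 17.8 ± 2.18 (SD, n = 3 each) and a log2 fold change of 2.16 (SE 0.12, edgeR FDR 4.67e-07). It was the lowest of the 10 genes in αTC1.

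Hspa5, the gene of the ER chaperone BiP, had 242, 240 and 284 FPKM in αTC1 and 618, 724 and 513 in βTC6. No βTC6 library came near the αTC1 libraries, and the log2 fold change was 1.33 (SE 0.15, edgeR FDR 3.90e-05). Herpud1, an ER membrane protein of ER-associated degradation, had 62.6, 61.5 and 47.4 FPKM in αTC1 and 110, 113 and 125 in βTC6. Its lines did not overlap, with a log2 fold change of 1.08 (SE 0.12, edgeR FDR 2.87e-05).

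Trib3, a pseudokinase that ATF4 and CHOP raise, had 17.8, 19.6 and 9.40 FPKM in αTC1 and 29.1, 13.9 and 43.5 in βTC6. Here βTC6 replicate 2 lay below 2 of the αTC1 libraries. The log2 fold change was 0.96 (SE 0.38, edgeR FDR 0.0464), close to the threshold. The call was lost in 9 of 13 alternatives, DESeq2 among them (log2 fold change 0.95, FDR 0.0981). Over the alternatives the Trib3 FDR ran from 0.00525 without βTC6 replicate 2 (log2 fold change 1.27) to 0.212 without βTC6 replicate 3 (log2 fold change 0.54).

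**Figure D1:**
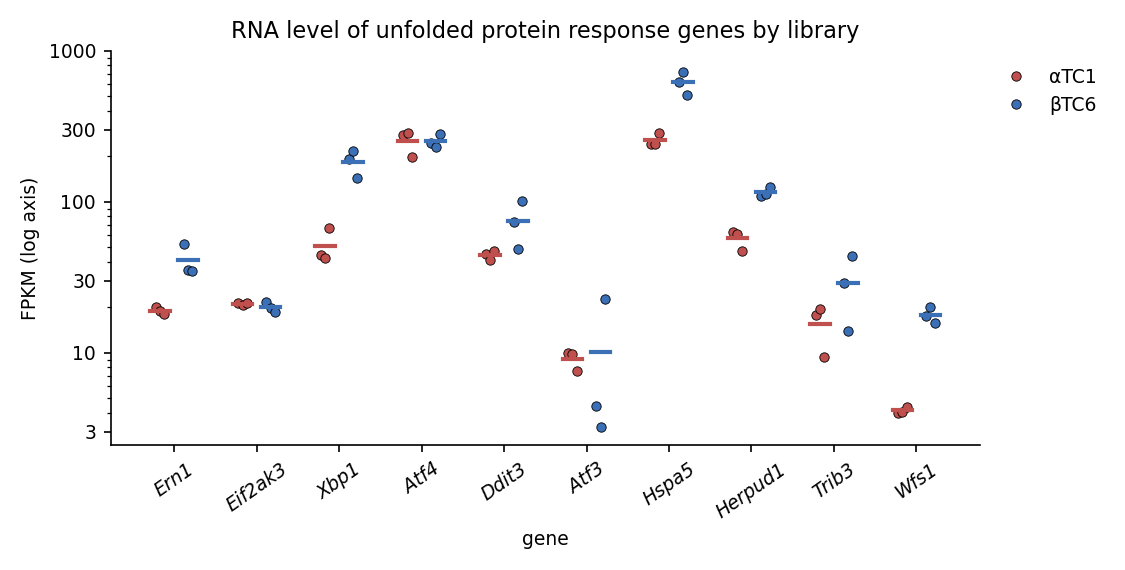
FPKM of the 10 genes (log axis) in the 3 αTC1 and the 3 βTC6 RNA-seq libraries; points are libraries and bars are means. Xbp1, Hspa5, Herpud1, Ern1, Ddit3 and Wfs1 have no overlap between the lines, whereas the βTC6 libraries of Atf3 spread from 3.21 to 22.9.

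Within each line the genes were ordered by FPKM. In αTC1 Hspa5 (mean 255) and Atf4 (254) led and their ranges overlapped, followed by Herpud1 (57.2), Xbp1 (51.3) and Ddit3 (44.5), each of which overlapped the next. Then came Eif2ak3 (21.1), Ern1 (19.0), Trib3 (15.6) and Atf3 (9.10), where Ern1 overlapped Trib3 and Trib3 overlapped Atf3, and Wfs1 (4.16) lay below all of them. In βTC6 Hspa5 (618), Atf4 (252), Xbp1 (184) and Herpud1 (116) stood in that order with no overlap between neighbours. Ddit3 (74.4), Ern1 (40.9), Trib3 (28.8), Eif2ak3 (20.0), Wfs1 (17.8) and Atf3 (10.2) followed, and each of these overlapped the next.

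The replicates of a line did not move together across the 10 genes. On the log2(FPKM + 1) scale, βTC6 replicate 3 lay above its line mean by 1.55 for Atf3, 0.71 for Trib3, 0.50 for Ddit3, 0.16 for Atf4 and 0.11 for Herpud1. The same library lay below the mean for Xbp1 (-0.34), Hspa5 (-0.26), Ern1 (-0.19), Wfs1 (-0.16) and Eif2ak3 (-0.09). So the genes of the ATF4 and CHOP side were at their highest in βTC6 where Xbp1, Hspa5 and Wfs1 were at their lowest. αTC1 replicate 3 showed the other arrangement, with Xbp1 (0.42) and Hspa5 (0.16) above the mean of its line and Trib3 (-0.61), Atf4 (-0.33), Herpud1 (-0.25) and Atf3 (-0.23) below it, though its Ddit3 departed by 0.09.

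Lists of related genes departed in some of the same libraries. Set against the mean of the other replicates of its line, the median departure of the 21 tested ATF4 and CHOP targets was -0.48 in αTC1 replicate 3, 0.20 in βTC6 replicate 3 and -0.24 in βTC6 replicate 2. For the 23 ER chaperones and folding enzymes the median departure was -0.45 in βTC6 replicate 3 and 0.32 in βTC6 replicate 2. In αTC1 replicate 3 it was 0.04, and for the 18 XBP1 targets of translocation and secretion it was -0.17 there, so these lists did not share the higher Xbp1 of that library. Over all genes tested the median departure lay between -0.04 and 0.03 in every library. ERCC spike-ins took 0.971% of the expected counts in βTC6 replicate 3 and between 0.436% and 0.723% in the other 5 libraries, and its part in these departures was not tested.

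**Figure D2:**
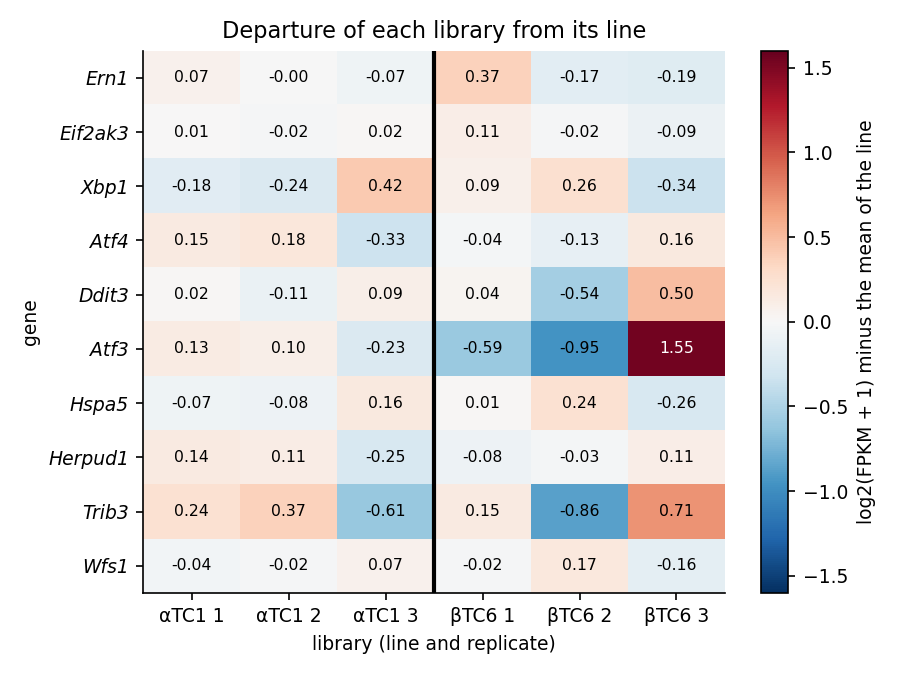
Departure of each RNA-seq library from the mean of its line, in log2(FPKM + 1), for the 10 genes (rows) and 6 libraries (columns); red is above and blue below the mean. βTC6 replicate 3 has the highest Atf3 (1.55) and Trib3 (0.71) and the lowest Xbp1 (-0.34) of its line, and αTC1 replicate 3 has the highest Xbp1 (0.42) and the lowest Trib3 (-0.61).

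The members belong to a wider pathway, described here by lists of other genes. Their counts are to be read beside the 38.7% of all 12195 genes tested that passed as higher in βTC6 and the 36% that passed as higher in αTC1, and beside the median of 0.01 over all genes. With ERCC factors, fewer genes passed in the lists (38 and 6 in place of 74 and 23) and over all genes tested (2132 and 1434 in place of 4715 and 4387). Among 23 ER chaperones and folding enzymes, 18 passed with a higher level in βTC6, 0 with a higher level in αTC1 and 5 did not pass, with a median log2 fold change of 1.07. The largest differences were those of Ero1lb, an ER oxidase of islet beta cells, with 12.2 ± 1.85 FPKM in αTC1 and 206 ± 5.43 in βTC6 (edgeR log2 fold change 4.13, FDR 1.56e-08), and of Dnajc3, a co-chaperone that also inhibits PERK, with 8.38 ± 0.221 and 48.6 ± 12.7 FPKM (SD, n = 3 each; log2 fold change 2.59, FDR 1.77e-06). The smallest among those that passed were those of Ppib, a prolyl isomerase, with 121.7 ± 3.73 and 150.8 ± 4.76 FPKM (log2 fold change 0.37, FDR 0.00129), and of Pdia3, a disulfide isomerase, with 216 ± 6.37 and 280.1 ± 53.5 (log2 fold change 0.43, FDR 0.0191). Calreticulin (Calr), at 352 and 1001 FPKM, and Hyou1, at 37.3 and 131, were singled out after their values were seen, and also passed. Of the genes that did not pass, Manf had 222 and 254 FPKM and Txndc5 had 75.3 and 68.3.

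Among XBP1 targets of protein translocation and secretion, 16 of 18 tested genes passed with a higher level in βTC6 and 0 with a higher level in αTC1, with a median of 0.91. Sec61b, a subunit of the translocon, had 65.3 ± 3.48 FPKM in αTC1 and 343 ± 62.7 in βTC6 (SD, n = 3 each; log2 fold change 2.45, edgeR FDR 4.55e-07). Sec24d, a coat protein of vesicles that leave the ER, had 2.90 ± 0.540 and 30.7 ± 10.3 FPKM (log2 fold change 3.46, FDR 3.12e-06). The smallest differences that passed were those of Ssr1, a translocon-associated protein, with 67.7 and 93.4 FPKM (log2 fold change 0.28, FDR 0.0437), and of the translocation gene Sec63, with 35.2 and 48.0 (log2 fold change 0.37, FDR 0.00224). Among 20 tested genes of ER-associated degradation, 14 passed as higher in βTC6 and 1, Ufd1l, as higher in αTC1, with a median of 0.77. Derl2, of the channel that moves proteins out of the ER, had 14.4 ± 1.88 and 39.4 ± 0.793 FPKM (log2 fold change 1.51, FDR 3.47e-07), and Selk, another ER membrane protein of this pathway, had 55.0 ± 4.25 and 136 ± 22.5 (log2 fold change 1.37, FDR 8.83e-06). Ufd1l itself had 46.5 and 38.3 FPKM (log2 fold change -0.21, FDR 0.0187). The next lowest that passed was Ube2j1, a ubiquitin-conjugating enzyme of the ER, whose FPKM of 49.4 and 49.5 hardly differed although its counts gave a log2 fold change of 0.22 (FDR 0.0337).

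Of 21 tested ATF4 and CHOP targets, 8 passed as higher in βTC6 and 5 as higher in αTC1, with a median log2 fold change of 0.13, where all genes tested gave 38.7% and 36%, so that the βTC6 count was near the share over all genes. Chac1, which degrades glutathione, had 13.8 ± 4.4 FPKM in αTC1 and 40.1 ± 15.1 in βTC6 (edgeR log2 fold change 1.59, FDR 0.00107), and Wars, a tRNA synthetase, had 39.7 ± 7.41 and 82.7 ± 4.35 (log2 fold change 1.10, FDR 5.98e-05). Ddit4, an inhibitor of mTORC1, went the other way with 45.9 ± 22.1 and 11.5 ± 2.39 FPKM (log2 fold change -1.94, FDR 0.000326), as did the aminotransferase gene Gpt2 with 34.2 ± 9.66 and 17.4 ± 1.51 (log2 fold change -0.97, FDR 0.00109). The αTC1 spread of Ddit4, Gpt2 and Chac1 was wide, like that of Trib3.

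Of 15 tested stress sensors and transcription factors, 5 passed as higher in βTC6 and 6 as higher in αTC1, with a median of 0.05, counts near the 38.7% and 36% of all genes tested. Creb3, a membrane-bound factor, had 20.6 ± 1.76 and 60.6 ± 3.6 FPKM (edgeR log2 fold change 1.57, FDR 5.68e-07) and Atf5 had 87.4 ± 30.7 and 137 ± 25.4 (0.71, FDR 0.0275). Nupr1, a stress-induced cofactor, had 61.3 ± 18.4 and 16.6 ± 2.05 FPKM (-1.82, FDR 4.02e-05), and Nfe2l2, the factor of oxidative stress NRF2, had 22.3 ± 0.297 and 11.6 ± 1.42 (-0.95, FDR 1.81e-05). Atf6, the sensor that acts with XBP1 and was named after its values were seen, had 24.6 FPKM in αTC1 and 18.5 in βTC6 (-0.36, FDR 0.0022).

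Of 11 genes for eIF2α, its exchange factor, its phosphatases and their partners, 5 passed as higher in βTC6 and 3 as higher in αTC1, with a median of 0.17. Eif2b2, a subunit of the exchange factor of eIF2, had 24.8 and 45.3 FPKM (edgeR log2 fold change 0.96, FDR 1.39e-05). Eif2s1, eIF2α itself, had 38.1 and 26.8 FPKM (-0.45, FDR 0.000781) and Ppp1r15b, which directs its dephosphorylation, had 40.6 and 29.2 (-0.50, FDR 0.00176).

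Of 14 tested genes of apoptosis under ER stress, 5 passed as higher in βTC6 and 6 as higher in αTC1, with a median of -0.06, which is again near the 38.7% and 36% over all genes. The kinase genes Mapk8 (12.03 and 30.1 FPKM) and Mapk9 (14.9 and 29.7) were higher in βTC6. Txnip, which binds thioredoxin and responds to glucose, had 87.4 ± 8.83 FPKM in αTC1 and 15.5 ± 4.32 in βTC6 (edgeR log2 fold change -2.41, FDR 1.46e-06), and Bcl2l11, the gene of the proapoptotic BIM, had 18.1 and 8.36 (-1.05, FDR 1.64e-06). Of 7 tested partners of wolframin and of ER calcium handling, 4 passed as higher in βTC6 and 2 as higher in αTC1, with a median of 1.04. Both ER calcium pump genes of the list stood out, Atp2a2 with 114 ± 7.95 and 458 ± 78.6 FPKM (2.06, FDR 1.31e-06) and Atp2a3 with 0.107 ± 0.0321 and 132 ± 2.80 (10.26, FDR 1.11e-09). Stim1, a sensor of ER calcium, had 11.5 and 22.8 FPKM (1.04, FDR 5.23e-06), while the calcium channel gene Itpr1 had 9.54 and 5.78 (-0.83, FDR 7.29e-05).

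The pattern of Wfs1 over the 6 libraries, measured as the Euclidean distance of centred log2(FPKM + 1), was nearest to those of Top2b (distance 0.10), Tacr3 (0.10) and H2-K1 (0.13). Tacr3 was listed at 0 FPKM in αTC1 and had 2.61 in βTC6, so its likeness comes from the 1 added to each FPKM, while Top2b had 5.99 and 24.3 FPKM and H2-K1 46.6 and 181. The pattern of Eif2ak3, the gene with the lowest log2 fold change of the 10, was nearest to those of Ncstn (0.04), Fam120a (0.05) and Mapre1 (0.06). The likeness rests on 6 libraries of 2 lines.

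In ATAC-seq, accessibility was compared as normalized read counts, that is, reads in a peak after TMM scaling of the libraries but with no scaling to the length of the peak, so values are compared between lines and not between peaks. Of the 30 peaks nearest to the genes, 7 passed (limma, FDR under 5%) as more open in βTC6 and 16 as more open in αTC1. Of all 65053 peaks, 39.9% passed as more open in βTC6 and 38.1% as more open in αTC1. None of the 30 exceeded a log2 fold change of 2 in the direction of βTC6 and 3 did in that of αTC1, where all peaks gave 12.9% and 5.38%. The count of 0 rests on the pseudocount and on single libraries: it was 2 with edgeR on the recovered reads and 1 to 2 without any one of αTC1 replicates 1, 2 and 4 and βTC6 replicates 1, 3 and 5. The read count ranges of the lines did not overlap in 23 of the 30 peaks, as in 63.9% of all peaks.

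The 10 promoter peaks, those within 2 kb of a start site and 1 for each gene, had log2 fold changes between -1.33 and -0.09. Among them, 7 passed as more open in αTC1 and 0 as more open in βTC6, with a median of -0.57. Promoter peaks as a whole leaned the same way: over 14581 of them the median was -0.31, and 52.3% passed as more open in αTC1 and 23.4% as more open in βTC6.

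The Hspa5 promoter peak (mm9 chr2:34627000-34627927), which covers the ER stress response element shown above, had normalized read counts of 82.5, 77.7, 82.2, 74.1 and 80.3 in αTC1 and of 41.3, 33.8, 41.5, 42.9 and 30.1 in βTC6. It was thus more open in each αTC1 library, the line with less Hspa5 RNA, with means of 79.4 ± 3.51 and 37.9 ± 5.63 (SD, n = 5 each) and a log2 fold change of -1.06 (SE 0.10, limma FDR 7.96e-09). The 49 peaks within 1 Mb of it had a median log2 fold change of -0.83. The 1162 promoter peaks of chromosome 2 had one of -0.44.

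The Atf3 promoter peak (chr1:193006285-193007771) had 121, 123, 134, 142 and 139 in αTC1 and 57.2, 44.9, 50.8, 54.8 and 52.0 in βTC6. All αTC1 libraries exceeded all βTC6 libraries by more than the spread of either line (limma log2 fold change -1.33, SE 0.09, FDR 3.85e-11). The 88 peaks within 1 Mb had a median of -0.93, and the 876 promoter peaks of chromosome 1 one of -0.90.

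The Eif2ak3 promoter peak (chr6:70793890-70795074) had 251, 240, 249, 228 and 254 in αTC1 and 107, 104, 104, 99.4 and 103 in βTC6. Its lines were as far apart as those of Atf3 (limma log2 fold change -1.23, SE 0.07, FDR 1.58e-11), although the RNA of this gene had not passed. The 51 peaks within 1 Mb had a median of -1.28, and the 778 promoter peaks of chromosome 6 one of -1.09. Chromosomes 1 and 6 thus leaned towards αTC1 over all their promoter peaks, and the part of this in the values of Atf3 and Eif2ak3 was not tested.

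The Atf4 promoter peak (chr15:80085163-80086468) had 73.2, 73.2, 75.7, 75.3 and 66.3 in αTC1 and 44.9, 43.3, 42.0, 42.8 and 40.5 in βTC6 (limma log2 fold change -0.75, SE 0.08, FDR 4.17e-08). The 62 peaks within 1 Mb had a median of -0.55. The Ddit3 peak (chr10:126725763-126728254), which also holds the start of Mbd6 and of a predicted gene and so cannot be assigned to Ddit3 alone, had 146, 144, 151, 145 and 120 in αTC1 and 84.9, 79.8, 86.8, 88.2 and 86.1 in βTC6 (limma log2 fold change -0.72, SE 0.08, FDR 1.10e-07). Here too no library of one line reached the range of the other. The 91 peaks within 1 Mb of the Ddit3 peak had a median of -0.43.

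The Xbp1 promoter peak (chr11:5420406-5422246) had 60.2, 57.0, 55.6, 59.8 and 54.6 in αTC1 and 54.0, 40.2, 45.4, 43.2 and 33.0 in βTC6 (limma log2 fold change -0.42, SE 0.11, FDR 0.00131). The lines came close, at 54.6 and 54.0, and after quantile normalization the difference no longer passed. The 89 peaks within 1 Mb of the Xbp1 promoter peak had a median of -0.46. The Herpud1 promoter peak (chr8:96909704-96911736), which also holds the start of Gm15890, had 80.1 to 94.5 in αTC1 and 58.0 to 72.3 in βTC6 (limma log2 fold change -0.31, SE 0.09, FDR 0.00288). It did not pass in replicates 4 and 5 alone (FDR 0.44), nor after quantile normalization, which turned it to 0.17 (FDR 0.0678).

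The promoter peaks of Wfs1, Ern1 and Trib3 did not pass. That of Wfs1 (chr5:37379672-37380763) had 61.7 to 74.7 in αTC1 and 48.8 to 62.3 in βTC6 (limma log2 fold change -0.17, FDR 0.0845), and quantile normalization turned it to 0.28 (FDR 0.009). The Ern1 peak (chr11:106348680-106349413) had 14.4 to 18.3 in αTC1 and 10.5 to 21.1 in βTC6 (-0.09, FDR 0.607), and the Trib3 peak (chr2:152169011-152170297) had 22.0 to 34.9 and 21.0 to 33.7 (-0.09, FDR 0.544), which quantile normalization turned to 0.15.

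**Figure D3:**
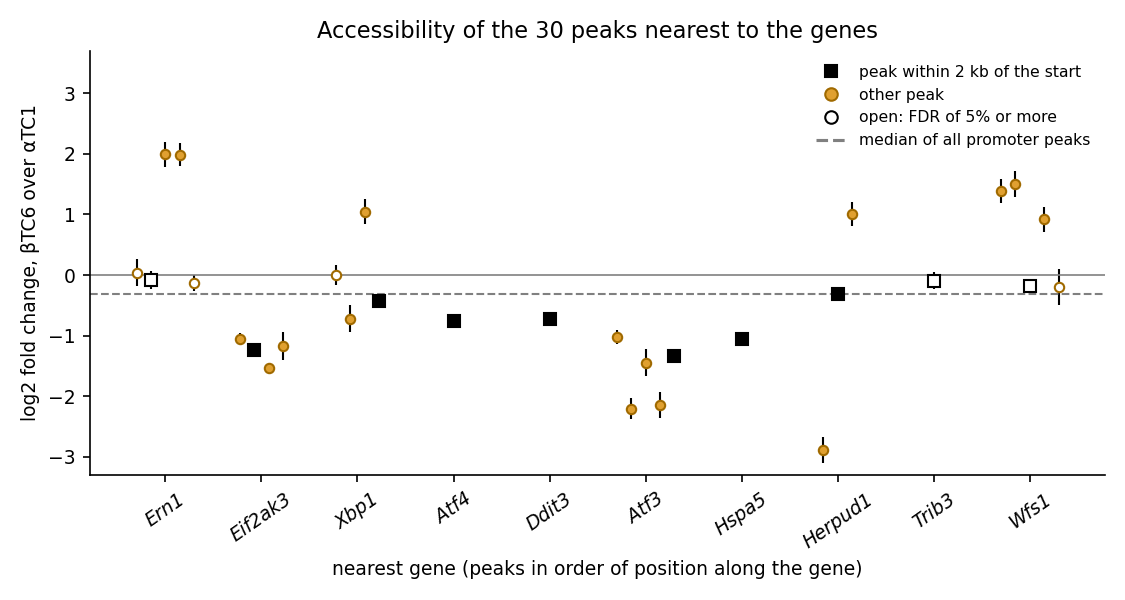
Log2 fold change (βTC6 over αTC1) of normalized read counts in the 30 peaks nearest to the genes, with ±1 SE from limma; squares are promoter peaks, circles other peaks, and open symbols have an FDR of 5% or more. All squares lie below 0 (after quantile normalization those of Herpud1, Wfs1 and Trib3 lie above it), the dashed line is the median of all promoter peaks (-0.31), and peaks more open in βTC6 occur at Ern1, Wfs1, Xbp1 and Herpud1.

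For each of the 10 genes the log2 fold change of the promoter peak was below that of the RNA of its gene, as it was for 73.9% of all 9488 tested genes with a promoter peak and for 95.9% of the 3723 among them whose RNA passed as higher in βTC6. For Hspa5 the RNA had a log2 fold change of 1.33 and the promoter peak one of -1.06, and for Ddit3 the values were 0.81 and -0.72, so that both passed in opposite directions. The same held for Xbp1 (1.93 and -0.42) and Herpud1 (1.08 and -0.31), which makes 4 of the 7 genes whose RNA passed, beside 34.9% of the 3723. That count holds for the main scaling. After quantile normalization the Xbp1 promoter peak no longer passed, that of Herpud1 turned, and that of Wfs1 passed as more open in βTC6. The share over all genes was not worked out there. The Ddit3 peak also holds the start of Mbd6, and the Ddit3 RNA did not pass with ERCC factors. With the main scaling, the RNA of Wfs1, Ern1 and Trib3 passed and their promoter peaks did not. For Atf4, Atf3 and Eif2ak3 the promoter peak passed and the RNA did not. RNA and ATAC-seq values were each normalized on their own, so the 2 scales share no common zero.

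**Figure D4:**
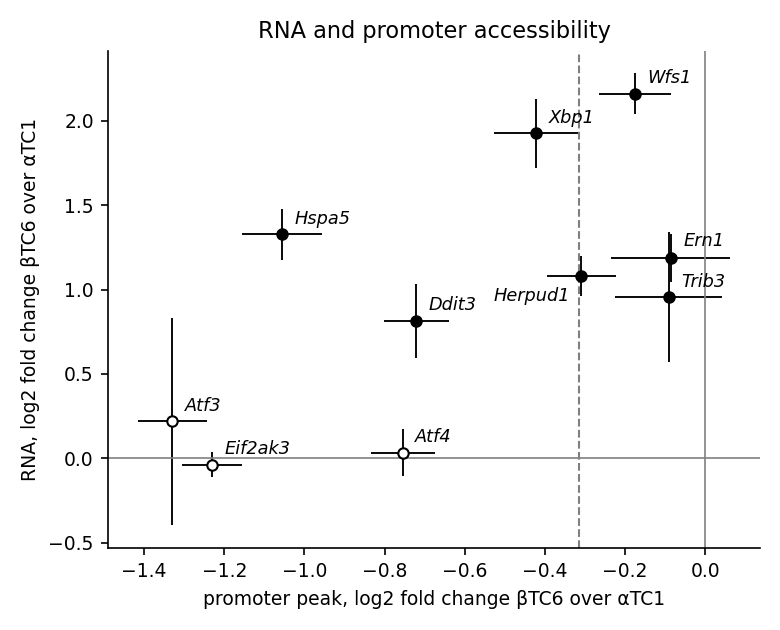
Log2 fold change (βTC6 over αTC1) of RNA against that of the promoter peak for the 10 genes, with ±1 SE; filled points passed the RNA test and the dashed line is the median of all promoter peaks (-0.31). All points lie left of 0 (Herpud1, Wfs1 and Trib3 lie right of it after quantile normalization), and Wfs1 (RNA 2.16, promoter peak -0.17) and Xbp1 (1.93 and -0.42) are the highest.

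Away from the promoters, 9 of 20 peaks passed as more open in αTC1 and 7 as more open in βTC6, with a median log2 fold change of -0.17 beside 0.18 over all 50472 peaks away from promoters, of which 34.0% passed as more open in αTC1 and 44.6% as more open in βTC6. The largest fitted difference, with 1 added to each read count, was in a peak 8540 bases upstream of Herpud1 (chr8:96901516-96902204), at the start of the non-coding gene Gm15889. It had 18.6, 19.5, 20.9, 19.1 and 24.7 in αTC1 and 3.41, 1.03, 2.70, 1.28 and 1.78 in βTC6, where it rested on 5 to 24 reads. The lines did not overlap (limma log2 fold change -2.88, SE 0.21, FDR 2.78e-10; -3.297 with edgeR on the recovered reads, which gave a larger difference, 3.61, for the Ern1 peak at 30929 bases), and the 108 peaks within 1 Mb had a median of -0.05. Herpud1 RNA was higher in βTC6, the line in which this peak had few reads. A peak 10938 bases downstream of the Herpud1 start went the other way, with 2.59 to 3.91 in αTC1 and 5.82 to 8.56 in βTC6 (log2 fold change 1.004, SE 0.20, FDR 0.000128).

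The 4 upstream peaks of Atf3 were all more open in αTC1. The peak at 38910 bases (chr1:193045935-193046309) had 18.6, 26.7, 24.3, 22.4 and 23.5 in αTC1 and 2.41, 4.92, 4.46, 4.57 and 5.07 in βTC6 (limma log2 fold change -2.21, SE 0.17, FDR 5.80e-10). The peak at 6688 bases (chr1:193013590-193014210) had 12.3, 11.0, 15.8, 11.7 and 8.96 in αTC1 and 2.13, 1.85, 2.84, 1.57 and 1.22 in βTC6 (-2.15, SE 0.21, FDR 1.82e-08). Both exceed the neighbourhood median of -0.91 to -0.93. The peak at 32979 bases had a log2 fold change of -1.44 (FDR 5.71e-06), and that at 41293 bases, which lies at the start of D730003I15Rik, one of -1.02 (FDR 1.09e-07).

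Within the Eif2ak3 gene, a peak 27962 bases after the start (chr6:70822112-70822853) had 121, 101, 131, 130 and 141 in αTC1 and 40.2, 41.0, 42.7, 44.9 and 41.8 in βTC6 (limma log2 fold change -1.54, SE 0.09, FDR 1.08e-11). The lines were set apart by more than in the promoter peak of the gene, and the 52 peaks within 1 Mb had a median of -1.20. The peaks 36491 bases after the start and 19789 bases before it had log2 fold changes of -1.17 and -1.05. The peaks within 1 Mb of each had a median of -1.26.

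Ern1 held the peaks with the largest change towards βTC6, both inside the gene and outside its exons. The peak 16787 bases after the start (chr11:106332040-106332606) had 1.40, 1.26, 0.751, 1.36 and 0.433 in αTC1 and 6.82, 6.97, 6.76, 6.85 and 7.51 in βTC6 (limma log2 fold change 1.99, SE 0.21, FDR 2.95e-08), which rested on 3 to 10 reads in αTC1. Its log2 fold change was 2.72 with edgeR on the recovered reads, and the ratio of the means was 6.69. The peak 30929 bases after the start (chr11:106318085-106318277) had 0.144 to 0.562 in αTC1, which is 1 to 4 reads, and 2.35 to 5.33 in βTC6 (1.99, SE 0.19, FDR 1.12e-08). So few reads set no firm ratio between the lines, and the pseudocount of 1 lowers the fold: edgeR on the recovered reads gave a log2 fold change of 3.61, and the ratio of the means was 13.0. The 2 remaining Ern1 peaks overlapped between the lines, and that at 48787 bases passed in replicates 1 to 3 alone (-0.31, FDR 0.0337).

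Upstream of Wfs1, the peak at 20768 bases (chr5:37400778-37401199) had 3.64, 2.67, 4.06, 5.46 and 7.08 in αTC1 and 16.0, 13.7, 14.6, 10.1 and 17.6 in βTC6 (limma log2 fold change 1.50, SE 0.21, FDR 2.07e-06). Its neighbour at 21750 bases had 2.25 to 6.36 in αTC1 and 11.4 to 12.6 in βTC6 (1.38, SE 0.20, FDR 3.22e-06). In both, each βTC6 library lay above each αTC1 library, while the 77 peaks within 1 Mb had a median of -0.01. A peak 28391 bases after the start was also more open in βTC6 (0.92, FDR 0.000404), and that at 39830 bases, inside Ppp2r2c, did not pass, though it did after quantile normalization (-0.68, FDR 0.0394). Near Xbp1, a peak 21204 bases upstream was more open in βTC6 (1.04, FDR 0.000128; 1.67 with edgeR on the recovered reads, with 6 to 8 reads in αTC1) and its neighbour at 22001 bases was more open in αTC1 (-0.72, FDR 0.00657), and the peak at 35005 bases did not pass (FDR 0.991). Quantile normalization ended the calls of the Wfs1 peak at 28391 bases (FDR 0.102) and of the Xbp1 peak at 21204 bases (FDR 0.0547), and that of the Xbp1 peak at 22001 bases was lost in replicates 4 and 5 alone (FDR 0.152).

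The letters of the 30 peaks, promoter peaks included, were read from mm9 in the central 200 bases. The search used 5 short motifs on both strands, chosen after the values were seen. The AP-1 motif (TGACTCA or TGAGTCA) was found in 6 of the 30 peaks and in 7.64% of all peaks, the E-box CAGATG in 6 and in 23.2%, the forkhead letters TGTTTAC in 3 and in 6.32%, the homeodomain core TAATTA in 2 and in 6.92%, and the MAF motif TGCTGAC in 1 and in 4.86%. The AP-1 letters lay in the upstream Atf3 peaks at 6688, 32979 and 38910 bases, in the Eif2ak3 peak at 27962 bases, in the Ern1 peak at 2460 bases upstream, which did not pass, and in the Hspa5 promoter peak. Over all peaks with these letters, 41.2% passed as more open in αTC1 and 42.0% as more open in βTC6. Shown are 4 of the peaks that passed and held one of these motifs, on the forward strand of mm9, with the letters of any of the 5 motifs in capitals.
Atf3, 6688 bases upstream, chr1:193013800-193013999: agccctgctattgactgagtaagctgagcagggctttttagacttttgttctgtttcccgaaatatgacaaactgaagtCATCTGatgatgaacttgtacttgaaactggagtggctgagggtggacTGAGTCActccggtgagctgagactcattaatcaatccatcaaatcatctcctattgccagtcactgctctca
Atf3, 38910 bases upstream, chr1:193046022-193046221: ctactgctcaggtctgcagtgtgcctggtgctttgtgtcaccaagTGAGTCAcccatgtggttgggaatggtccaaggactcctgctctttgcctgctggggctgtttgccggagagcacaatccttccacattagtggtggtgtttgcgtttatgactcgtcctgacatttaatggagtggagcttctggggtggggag
Eif2ak3, 27962 bases after the start, chr6:70822382-70822581: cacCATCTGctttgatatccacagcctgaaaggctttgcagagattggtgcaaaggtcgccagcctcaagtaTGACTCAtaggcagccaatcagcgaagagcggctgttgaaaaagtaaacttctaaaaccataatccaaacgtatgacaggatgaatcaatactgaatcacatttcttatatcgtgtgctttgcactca
Ern1, 16787 bases after the start, chr11:106332223-106332422: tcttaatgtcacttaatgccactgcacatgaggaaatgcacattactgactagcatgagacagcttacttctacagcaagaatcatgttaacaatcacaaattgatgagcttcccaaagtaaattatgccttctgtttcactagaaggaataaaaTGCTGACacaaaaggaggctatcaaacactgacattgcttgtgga
In the Atf3 peaks the capitals are the AP-1 motif and, at 6688 bases, also the E-box. The Eif2ak3 peak holds the E-box near its first base and the AP-1 motif further in, and the Ern1 peak holds the MAF motif alone. In the Atf3 peak at 32979 bases, not shown, the E-box and AP-1 letters overlap. The Herpud1 peak at 8540 bases held none of the 5 motifs, which says only that these letters are not in this window.

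The mixtures gave the peaks in libraries that the comparison of the pure lines did not use. They were made from the same lines, and the peaks were chosen for their difference between those lines. The direction of change was thus largely set beforehand and is no separate support for that difference. Over the 9 mixtures, 17 peaks were examined, those that passed with an absolute log2 fold change over 1 in the pure lines. The read count changed with the share of αTC1 cells in the direction set by the pure lines in all 17, and 14 of them had an adjusted p under 5% for Pearson's r and likewise for Spearman's rho (exact permutation test, two-sided, Benjamini-Hochberg over the 17). Adjusted over all 31848 peaks past the same thresholds, 14 of the 17 again had a p under 5% for each coefficient, beside 85.5% of those peaks for r and 81.4% for rho, and 99.5% of them changed in the direction of the pure lines. The member peaks thus changed in the mixtures about as often as other peaks of that size. The exceptions were the Eif2ak3 peak 19789 bases upstream, the Herpud1 peak at 10938 bases and the Xbp1 peak 21204 bases upstream. Each mixture is 1 library, so there is no replicate at any share.

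For the Hspa5 promoter peak the mixtures with 10 to 90% αTC1 cells had 29.3, 37.0, 45.0, 53.0, 52.0, 60.2, 58.6, 72.4 and 78.8, a near steady climb from the βTC6 level to the αTC1 level. Pearson's r was 0.98 (exact permutation, adjusted p = 0.000187) and Spearman's rho 0.97 (adjusted p = 0.000562), and r was 0.96 without the outermost mixtures. For the Herpud1 peak 8540 bases upstream they had 4.17, 6.57, 11.3, 7.52, 15.2, 13.1, 14.6, 16.1 and 15.2, which climbed in the lower shares and levelled above 50% αTC1 cells. There r was 0.88 (exact permutation, adjusted p = 0.00404), rho was 0.92 (0.00319) and r without the outermost mixtures was 0.84.

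Of the peaks more open in βTC6 that were examined, those of Wfs1 and Ern1 fell as αTC1 cells were added. Those of Herpud1 and Xbp1 leaned the same way, but neither passed for r or rho. Their r was -0.58 and -0.61 (exact permutation, adjusted p = 0.0999 and 0.0884). Without the outermost mixtures it was -0.21 and -0.12. The Wfs1 peak 20768 bases upstream had 21.0, 14.2, 14.1, 9.78, 13.2, 5.68, 6.83, 5.38 and 3.86 (r -0.93, exact permutation, adjusted p = 0.00108; rho -0.97, adjusted p = 0.000562; r -0.88 without the outermost mixtures). The Ern1 peak 16787 bases after the start had 7.26, 3.42, 4.54, 4.33, 2.92, 1.31, 2.38, 3.82 and 1.22, with r -0.74 (exact permutation, adjusted p = 0.0225), rho -0.73 (0.0407) and r -0.42 without the outermost mixtures. The relation of that Ern1 peak thus rests in part on the 2 outermost mixtures, as does that of the Atf3 peak at 38910 bases, where r was 0.76 with and 0.42 without them.

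**Figure D5:**
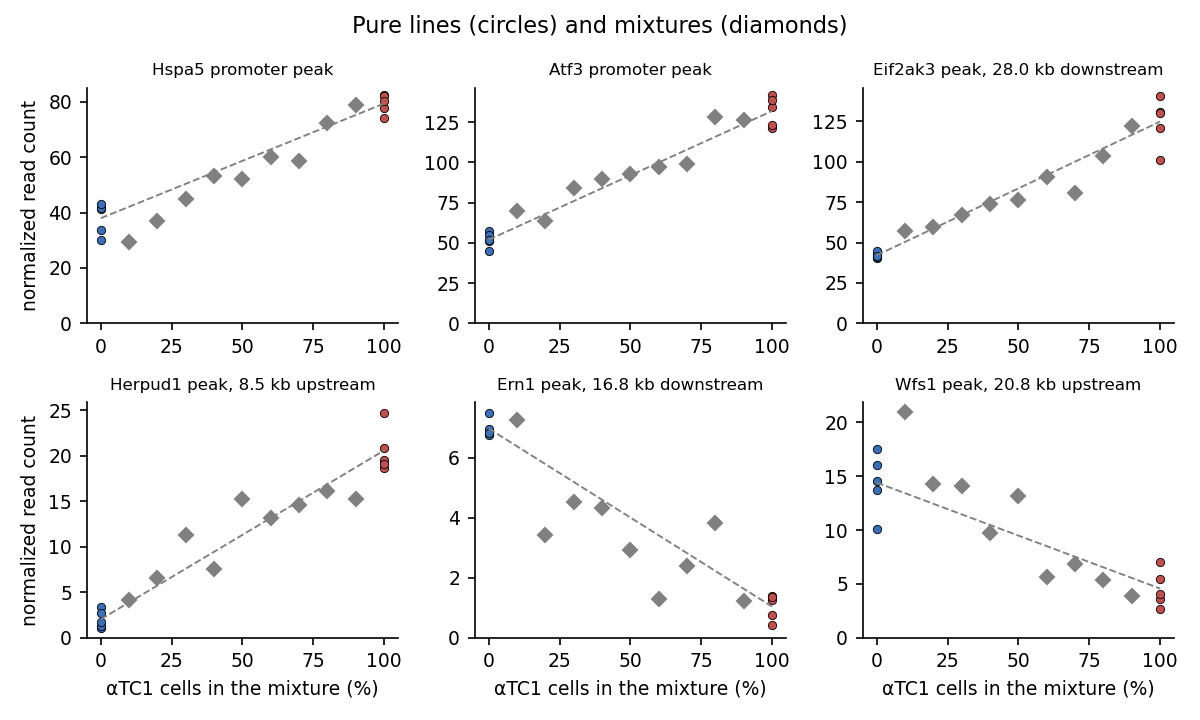
Normalized read counts of 6 peaks in the pure lines (circles, 5 libraries each, βTC6 at 0% and αTC1 at 100%) and in the 9 mixtures (diamonds, 1 library each) against the percentage of αTC1 cells; the dashed line joins the means of the pure lines. The Hspa5, Atf3, Eif2ak3 and Herpud1 peaks climb with αTC1 cells and the Ern1 and Wfs1 peaks fall.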

How the data were processed

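RNA-seq was made from 3 replicates of each line and ATAC-seq from 5 replicates of each line and 9 mixtures. Per the submitters' processing notes the tools were Trim Galore 0.40, Bowtie2 2.23 and RSEM 1.2.12 for RNA and Trimmomatic 0.32, BWA 0.7.9a, Picard 1.95, MACS2 2.1.0, DiffBind 2.2.5 and HOMER 4.6 for ATAC-seq, and peak coordinates are on mm9. The authors deposited RSEM expected counts and FPKM per gene, and for each consensus peak a signal, the TMM-normalized read count from DiffBind. The library kit was stranded, but the paper gives default settings for RSEM, which do not use strand, so reads of overlapping antisense genes may have been counted together.

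Groups came from the labels. Expected counts were rounded and tested with edgeR 4.0.16 (quasi-likelihood, TMM, R 4.3.3) over the 12195 genes for which every replicate of at least 1 line reached an FPKM of 1, and log2(normalized read count + 1) with limma 3.58.1 over all 65053 peaks and the 10 pure libraries. P-values were adjusted over all features (Benjamini-Hochberg, FDR under 5%), and the strict threshold added an absolute log2 fold change over 2. The 92 ERCC spike-ins name no gene and were left out of library sizes and tests. The SE of edgeR folds is the fold divided by the square root of F. Whole reads were recovered from 100% of the ATAC-seq values (tolerance 0.001), on which edgeR called 25913 peaks as more open in βTC6 and 24484 in αTC1. Mixture correlations used exact permutation over 9 libraries. Depths were 21954031 to 26033482 expected counts and 4397851 to 10374903 reads in peaks for the pure libraries, and 5277983 to 7294832 for the mixtures. Intervals of counting were not used, since replicate spread is given.

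The members and lists were chosen with earlier results of these data known. By rule, the text names all 10 members, the 2 genes of each list with the highest and the 2 with the lowest log2 fold change among those that passed and reached an FPKM of 5 in each replicate of the line with more RNA, the 3 genes nearest in pattern to the members with the highest and the lowest log2 fold change, and for each member its promoter peak and the peak with the largest change among those that passed. Other peaks were described after their values were seen. Vimp and Spcs3 were not matched. The peak motifs were chosen after the values were seen. Same-numbered replicates of the lines did not deviate together (correlations between -0.04 and 0.069), so the numbers were not taken as pairs. Each test was checked on simulated data. Alternatives included DESeq2 1.42.0, other scalings, filters and pseudocounts, a split of the ATAC-seq replicates (1 to 3 against 4 and 5) that was inferred from how the study's quality control treats the libraries, since the labels name no batch, and leaving out each replicate. Sequences and figures were made with Python 3.11.15, pandas 2.3.3, numpy 2.4.6, scipy 1.17.1 and matplotlib 3.10.9.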

Additional observations from a re-analysis of the deposited data

Results flagged for a closer look

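In 9 of the 60 groups of 5 ATAC-seq libraries (30 peaks in each of 2 lines), 1 library stood apart from the other 4 by Dixon's criterion, whose nominal rate is about 1 group in 20. The groups share the same libraries and so are not independent, and the share over all peaks was not worked out. The count is therefore not read as a trait of these peaks. In the Atf3 peak 38910 bases upstream, βTC6 replicate 1 had 2.41 and the others between 4.46 and 5.07. In the peak 41293 bases upstream of Atf3, βTC6 replicate 4 had 17.8 and the others between 25.8 and 28.6. αTC1 replicate 5 was low in the Atf4 promoter peak, at 66.3 beside 73.2 to 75.7, and in the Ddit3 peak, at 120 beside 144 to 151, and it was high in the Wfs1 promoter peak, at 74.7 beside 61.7 to 62.9. βTC6 replicate 2, the library with the fewest reads, had 58.0 in the Herpud1 promoter peak beside 71.1 to 72.3. The Herpud1 peak 10938 bases downstream had 3.91 in αTC1 replicate 3 beside 2.59 to 2.94, and the Wfs1 peak at 39830 bases had 0.751 in the same library beside 3.68 to 4.35. In the Ern1 peak at 16787 bases, βTC6 replicate 5 had 7.51 and the others between 6.76 and 6.97. In each of the 9 cases the library that stood apart lay outside the range of the other line. Groups of 3 RNA-seq libraries were not tested in this way.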

How the results depend on the processing

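Wfs1, Xbp1, Hspa5, Herpud1 and Ern1 kept their direction and passed in all 13 RNA-seq alternatives, Ddit3 in all but the ERCC factors, and Trib3 in 4. The number of genes that passed as higher in βTC6 was 5 with ERCC factors, where Herpud1 had an edgeR FDR of 0.0492. It was 6 to 7 when single replicates were left out. In those settings 0 to 1 passed as higher in αTC1, and 1 to 2 passed the strict threshold in βTC6, which 0 did on log2(FPKM + 1) with limma. The Atf3 log2 fold change was -0.17 with ERCC factors, -0.38 on log2(FPKM + 0.1), -0.30 on log2(FPKM + 1), -0.31 with the replicate block, and -1.19 to 0.62 without single replicates. That of Atf4 was -0.017 with ERCC factors, -0.022 with no FPKM filter, -0.00057 on log2(FPKM + 0.1), -0.00062 on log2(FPKM + 1) and -0.11 to 0.12 without single replicates, and that of Eif2ak3 was -0.089 to 0.011 without them. Over the lists, 74 genes passed as higher in βTC6 and 23 as higher in αTC1, and 8 and 1 under the strict threshold. ERCC factors gave 38, 6 and, strict in αTC1, 2, and over all genes tested 2132 and 1434 in place of 4715 and 4387. Without single replicates the counts were 67 to 73, 17 to 25, 7 to 10 and 1 to 2.

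Of the 30 peaks, 7 passed as more open in βTC6 and 3 did so with a mean read count of at least 5, since fewer peaks were then tested. In the strict count, βTC6 had 2 with edgeR on the recovered reads, 2 with a pseudocount of 0.5, 1 in replicates 1 to 3 and 1 in replicates 4 and 5 alone, and 0 to 2 without single replicates, and αTC1 had 0 with a pseudocount of 5. The peaks that changed sign had log2 fold changes of -0.31 to 0.04. Quantile normalization turned the promoter peaks of Herpud1 (0.17), Trib3 (0.15) and Wfs1 (0.28) and the Ern1 peak 2460 bases upstream (-0.25). In replicates 1 to 3 alone that Ern1 peak was at -0.14, the Ern1 promoter peak at 0.067, the Wfs1 peak at 39830 bases at 0.27 and the Xbp1 peak at 35005 bases at 0.067, and in replicates 4 and 5 alone the Ern1 peak at 48787 bases was at 0.12. The Xbp1 peak at 35005 bases was at 0.000388 with edgeR and 0.000111 with a pseudocount of 5. Without single replicates it ran from -0.094 to 0.10, the Ern1 promoter peak from -0.20 to 0.039 and the Ern1 peak at 2460 bases from -0.10 to 0.19. The causes were not tested.

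With the replicate block, 4624 and 4296 genes passed as higher in βTC6 and αTC1 and 26066 and 25063 peaks, and among the genes it changed the call of Trib3 (0.87, FDR 0.111). Depth limits the Ern1 peak at 30929 bases and the Xbp1 peak at 21204 bases, with 1 to 4 and 6 to 8 reads in αTC1.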
